A study of Macaca mulatta with 12 samples.

Results

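The genes described here are ligands and receptors that steer growing axons: semaphorins with their plexin and neuropilin receptors, ephrins with their Eph receptors, slits with ROBO1, netrin with DCC and UNC5 receptors, and the growth cone protein GAP43. They were picked by gene symbol alone from the probe table of the array, by the prefixes SEMA, PLXN, EFNA, EFNB, EPHA, EPHB, SLIT, ROBO, UNC5 and NTN and the names NRP1, NRP2, DCC and GAP43. This gave 62 probe sets for 47 of the 8226 genes with a probe set of their own, and each gene was read from its brightest probe set. The prefix UNC5 also took in UNC50, which is no netrin receptor. It is kept in the counts and given separately below, and leaves 46 guidance genes. RNA came from the dorsal raphe nucleus of female rhesus macaques that carried Silastic implants under the skin for 1 month, and was hybridized to human U95A arrays, 1 array per monkey. The groups were 3 monkeys with estrogen, 3 with progesterone, 3 with estrogen and progesterone, and 3 with placebo. The placebo animals carry the code OVX, the usual short form of ovariectomized. The labels read here state no age, steroid dose or ovarian status for the hormone groups.

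As background, guidance ligands are read by receptors on the growth cone, which turn the signal into growth or collapse of the actin skeleton. Semaphorins act through plexins, the secreted class with neuropilins as co-receptors. Slits repel axons through ROBO receptors, netrins attract through DCC and repel through UNC5, and ephrins signal at cell contacts through the Eph receptor kinases. Raphe serotonin neurons send long axons to the forebrain, and many of these molecules stay expressed in adult neurons, glia and vessels.

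The deposited values are intensities on a linear scale, and human probes were read with macaque RNA, so levels are compared only within a probe set. Spearman correlations between arrays lay between 0.910 and 0.967, taken over probe sets, which do not count as replicates. Estrogen array 1 and both-hormone array 1 stood apart: a 28S ribosomal RNA control read 841 and 1354 there, against at most 179 on the other 10. The ratio of the 3' to the 5' GAPDH control was also high there, at 2.45 and 2.05, against at most 1.46 on the other 10. For the actin control that ratio was 1.12 and 1.11, within the range of the others. Of the 9 serotonin neuron markers on the array, 8 were bright enough to be tested. TPH1 was below the filter and TPH2 had no named probe set. Summed over these 9, marker intensity was 1485 to 1578 with estrogen, 1074 to 1289 with progesterone and 1332 to 1525 with the combined treatment, against 1354 to 1675 with placebo. In tissue RNA, fewer cells of a type and less RNA per cell cannot be told apart.

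No axon guidance gene passed the threshold in any comparison. Of the 47 genes, 32 were bright enough to be tested (the lowest 40% of probe sets were left out) and 15 were not. Fits were made with limma on log2(intensity + 8.26) over all 7535 tested probe sets, with Benjamini-Hochberg adjustment and a threshold of 0.05. Changes are on that scale, which understates dim genes. With estrogen against placebo 0 of 32 passed (0% of all tested probe sets did). Progesterone gave 0 of 32 (0.0398%) and the combined treatment 0 of 32 (0.0133%). Those at an unadjusted p under 0.05 numbered 2 members with estrogen (6.25%, against 3.16% of all), 1 with progesterone (3.12%, against 8.24%) and 1 with both (3.12%, against 3.38%). Limma's F test over the 4 groups put 0 of 32 past the adjusted threshold (0.0531% of all) and 0 at an unadjusted p under 0.05 (5.79% of all). After normalization, hormone and placebo arrays did not overlap for 2 members with estrogen (6.25%, against 6.13%), 3 with progesterone (9.38%, against 16.7%) and 4 with both (12.5%, against 8.92%). These were SEMA3A and SLIT2 with estrogen, SEMA3A, SEMA3C and EFNB2 with progesterone, and SLIT2, UNC5B, SLIT1 and EFNB1 with both.

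**Figure D1:**
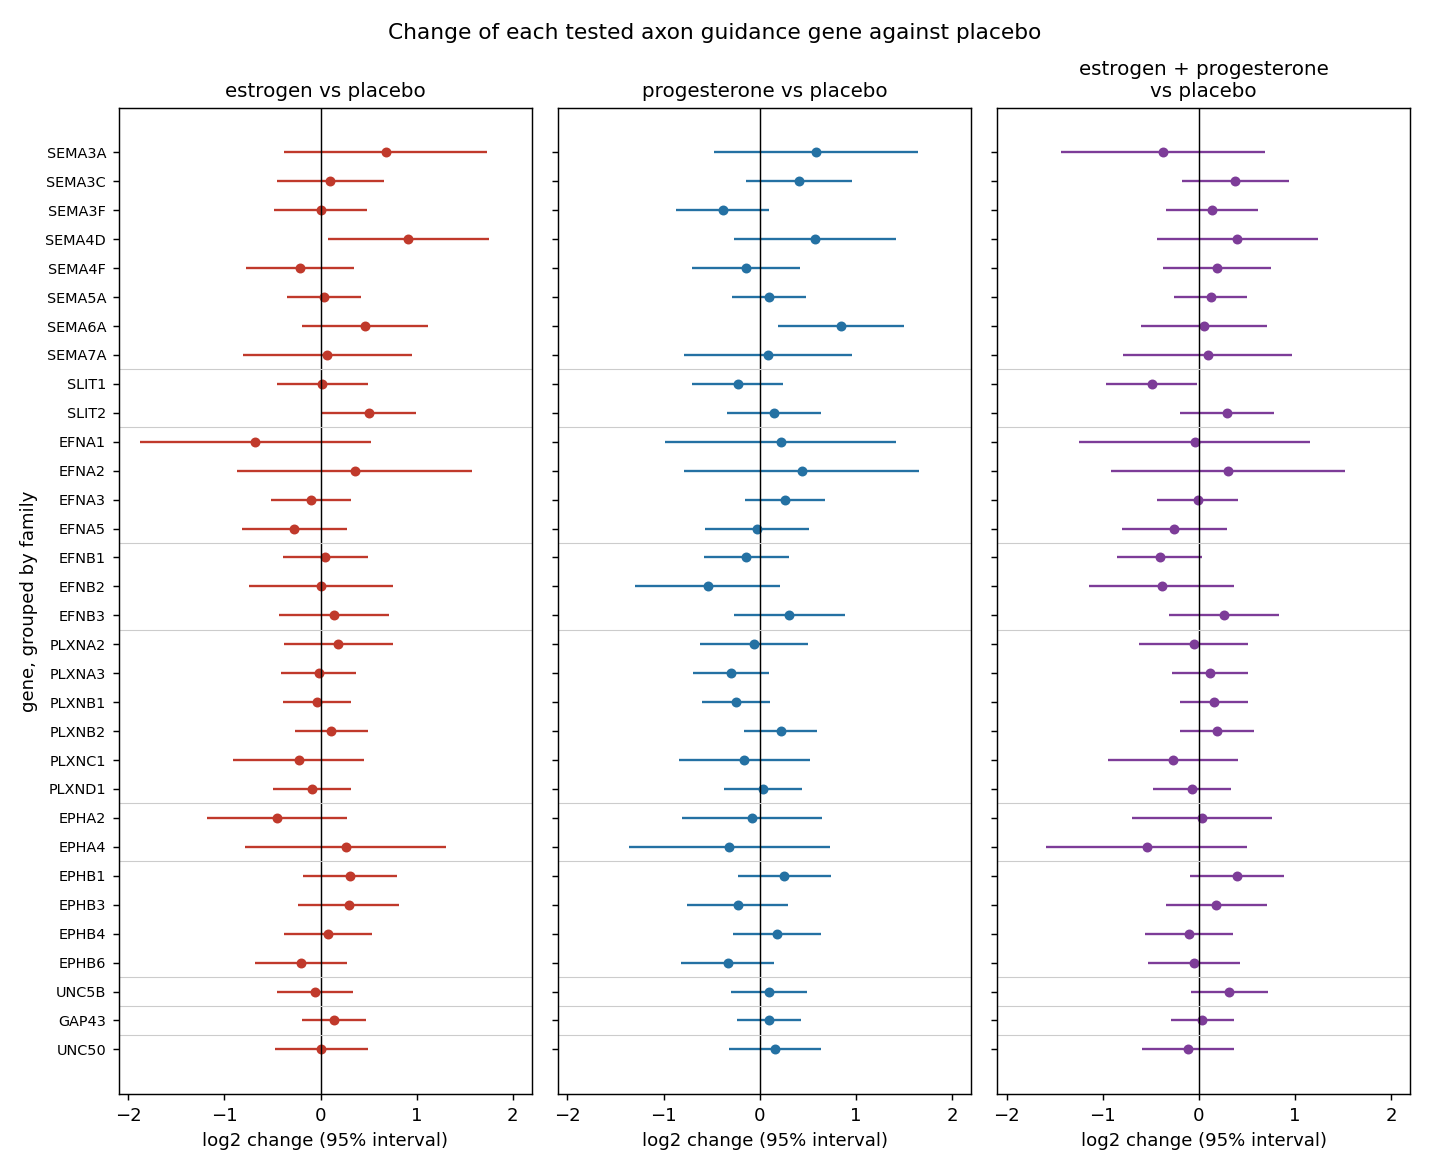
Log2 change of each of the 32 tested axon guidance genes against placebo (x axis) with its 95% interval from limma (lines), for estrogen, progesterone and both hormones, genes grouped by family down the page. Intervals lie clear of 0 only for SEMA4D and SLIT2 with estrogen, SEMA6A with progesterone and SLIT1 with both, none past the adjusted threshold.

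The members lay on both sides of placebo. Their median log2 change was 0.043 with estrogen, 0.090 with progesterone and 0.042 with the combined treatment. With estrogen 21 members lay above 0 (65.6%, against 49.2% of all), with progesterone 18 (56.2%, against 50.4%) and with the combined treatment 18 (56.2%, against 49.4%). Without placebo array 1 the counts above 0 were 13, 17 and 15 of 32 with estrogen, progesterone and both, and the medians were −0.054, 0.012 and −0.023, so the estrogen and both-hormone medians turned below 0. Over all 7535 probe sets the medians were −0.0047, 0.0022 and −0.0031. UNC50 contributed 0.0096, 0.16 and −0.11 with estrogen, progesterone and both. The 17 tested ligands gave medians of 0.051, 0.15 and 0.089 with estrogen, progesterone and both, and the 13 receptors gave −0.020, −0.085 and 0.028. The size of change that these arrays bound can be read from the intervals. The 95% interval lay within a 2-fold change in either direction for 25 members with estrogen (78.1%, against 77.9% of all), 25 with progesterone (78.1%, against 74.9%) and 26 with both (81.2%, against 77.8%). For EFNA1, EFNA2, EPHA4, SEMA3A and SEMA4D it reached beyond 2-fold in each of these comparisons.

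**Figure D2:**
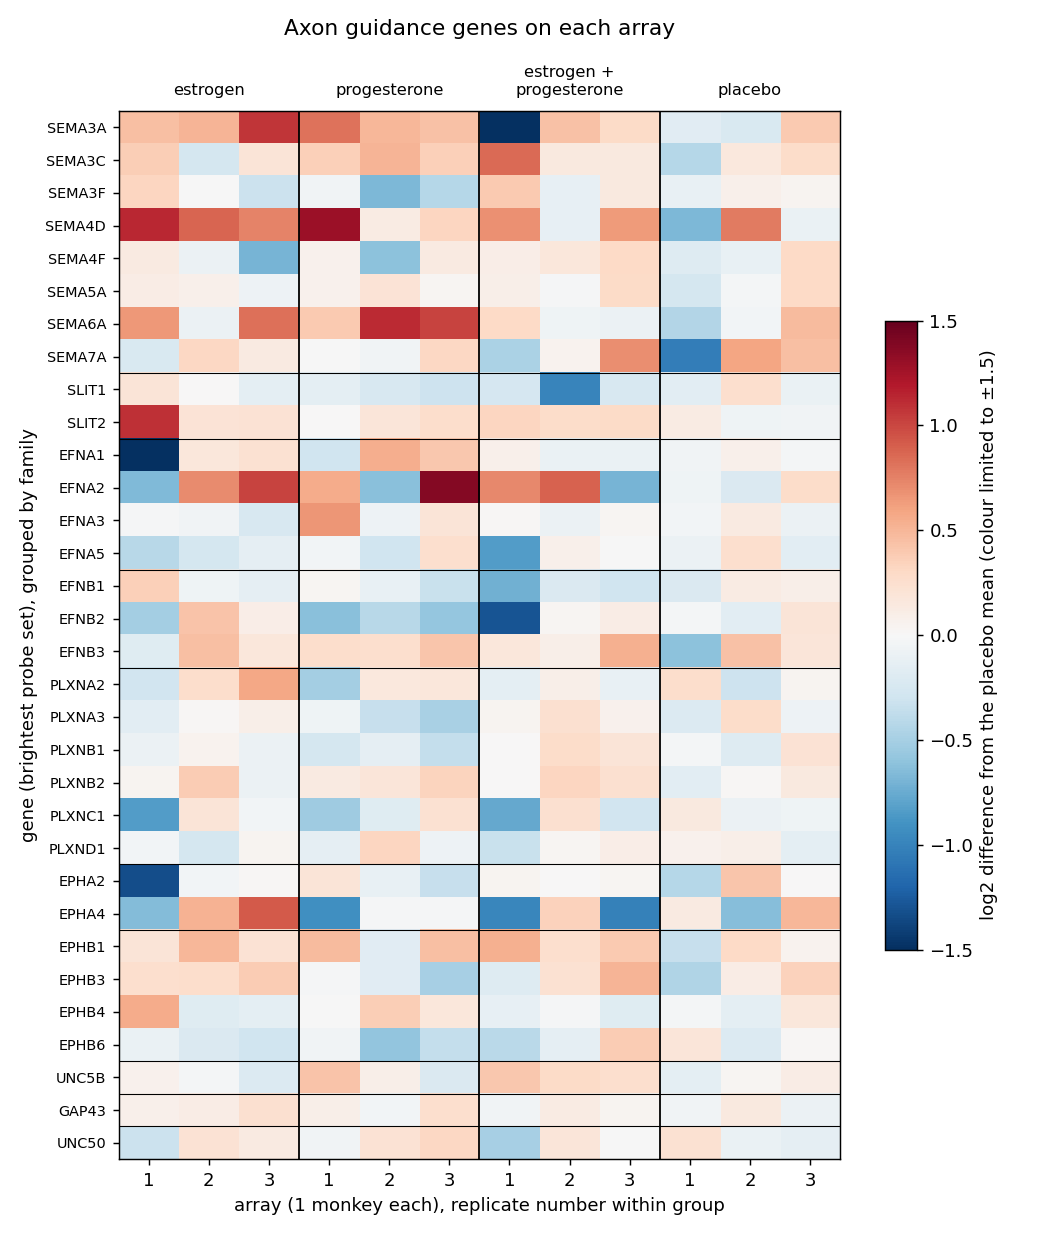
Log2 difference of each array from the placebo mean of the gene (colour), for the 32 tested genes (rows, by family) on the 12 arrays (columns, 3 monkeys per group). The strongest blue squares are single arrays, EFNA1 and EPHA2 on estrogen array 1 and SEMA3A and EFNB2 on both-hormone array 1, and GAP43 is nearly even across all 12.

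Semaphorins are secreted or membrane ligands, known mostly as repellents. Of the 8 tested, 7 lay above 0 with estrogen, 6 did with progesterone and 7 with both, with medians of 0.088, 0.25 and 0.13. These counts rest on placebo array 1: without it 3, 4 and 4 of 8 lay above 0 with estrogen, progesterone and both, and the medians were −0.075, 0.080 and 0.025. Without estrogen array 1 the estrogen count was 4 of 8. SEMA4D, a membrane semaphorin that binds plexin-B1, read 152, 119.5 and 103 on the estrogen arrays, 162, 66.8 and 77.3 on the progesterone arrays and 109.5, 56.6 and 100.5 on the both-hormone arrays, against 33.9, 112 and 57.0 on the placebo arrays. The estrogen arrays overlapped placebo array 2, and placebo array 1 was the lowest of the 12. Its change with estrogen was 0.91 ± 0.39 (SE, limma unadjusted p = 0.0355, adjusted p = 0.9999), and its changes with progesterone and both were 0.57 and 0.40. Without placebo array 1 the values were 0.57, 0.23 and 0.061 with estrogen, progesterone and both (limma unadjusted p = 0.166 with estrogen). Without progesterone array 1 the progesterone value was 0.22.

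SEMA6A, a membrane semaphorin that binds class A plexins, read 81.7, 39.3 and 79.3 on the estrogen arrays, 62.0, 105 and 97.0 on the progesterone arrays and 62.3, 41.7 and 39.8 on the both-hormone arrays, against 29.8, 42.3 and 66.4 on the placebo arrays. Progesterone arrays 2 and 3 lay above every placebo array and array 1 did not. The change with progesterone was 0.84 ± 0.30 (SE, limma unadjusted p = 0.0162, adjusted p = 0.526), against 0.46 with estrogen and 0.050 with both. A dimmer SEMA6A probe set, below the filter, had changes of 0.37, 0.73 and 0.60 for estrogen, progesterone and the combination. The progesterone value was 0.62 without placebo array 1 and 0.71 without progesterone array 2, with limma unadjusted p of 0.0753 and 0.0629.

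SEMA3A, the secreted semaphorin known for collapsing growth cones, read 69.2, 64.6 and 94.4 on the estrogen arrays, 82.4, 64.2 and 61.4 on the progesterone arrays and 7.94, 62.9 and 53.3 on the both-hormone arrays, against 36.3, 34.8 and 60.1 on the placebo arrays. Every estrogen array and every progesterone array lay above all placebo arrays, while both-hormone array 1, with high ribosomal signal, lay under the offset of 8.26. Its changes were 0.68 ± 0.48 with estrogen, 0.58 ± 0.48 with progesterone and −0.37 ± 0.48 with both (SE, limma unadjusted p = 0.189, 0.252 and 0.456). Without both-hormone array 1 the value with both turned to 0.37, and the estrogen value was 0.68 (unadjusted p = 0.0134, adjusted p = 0.9995, limma).

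SEMA3C, another secreted semaphorin, read 72.6, 37.6 and 52.6 on the estrogen arrays, 65.5, 71.5 and 64.6 on the progesterone arrays and 99.8, 55.5 and 53.2 on the both-hormone arrays, against 32.7, 55.2 and 61.6 on the placebo arrays. The progesterone arrays lay just above the placebo range, and the changes were 0.10 with estrogen, 0.41 with progesterone and 0.38 with both. Without placebo array 1 they were −0.11, 0.19 and 0.16, and without both-hormone array 1 the value with both was 0.15. Its other probe set, below the filter, had changes of 0.68, 0.0069 and −0.15 for these treatments. SEMA3F, which signals through neuropilin-2, read 505, 412 and 322 on the estrogen arrays, 398, 248 and 294 on the progesterone arrays and 526, 380.1 and 449 on the both-hormone arrays, against 373, 438 and 425 on the placebo arrays. Progesterone arrays 2 and 3 were below placebo and array 1 was within it, for a change of −0.39 ± 0.22 (SE, limma unadjusted p = 0.105). Its dimmer probe set, below the filter, had changes of 0.27, −0.24 and 0.22 for estrogen, progesterone and the combination. SEMA5A, a membrane semaphorin, read 578, 581 and 525 on the estrogen arrays, 581, 629 and 557 on the progesterone arrays and 569, 542 and 688 on the both-hormone arrays, against 451, 541 and 676 on the placebo arrays. It gave 0.034 with estrogen, 0.10 with progesterone and 0.12 with both, with overlapping groups, and its other tested probe set gave −0.073, −0.34 and −0.077. SEMA4F gave −0.21 with estrogen, −0.14 with progesterone and 0.19 with both, and the lipid-anchored SEMA7A gave 0.072 with estrogen, 0.084 with progesterone and 0.089 with both, with placebo array 1 at 77.7 against 276 and 251 on the other placebo arrays.

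Slits are secreted repellents. Of the tested slits, SLIT2 read above placebo and SLIT1 below it with both hormones. SLIT2 read 803, 452 and 452 on the estrogen arrays, 387, 434 and 466 on the progesterone arrays and 482, 469 and 476 on the both-hormone arrays, against 418, 375 and 382 on the placebo arrays. All estrogen arrays and all both-hormone arrays were above placebo, and estrogen array 1, with high ribosomal signal, was far above the rest. The change was 0.51 ± 0.22 with estrogen (SE, 95% interval 0.017 to 0.99, limma unadjusted p = 0.0435, adjusted p = 0.9999) and 0.29 with both. Without estrogen array 1 the estrogen value was 0.21 (limma unadjusted p = 0.2).

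SLIT1 read 362, 319.9 and 276 on the estrogen arrays, 283, 260.3 and 252 on the progesterone arrays and 266, 159 and 266 on the both-hormone arrays, against 274, 384 and 299 on the placebo arrays. All both-hormone arrays were below the placebo range, array 2 by the most. The change with both was −0.49 ± 0.22 (SE, 95% interval −0.97 to −0.019, limma unadjusted p = 0.0427, adjusted p = 0.9994), against 0.018 with estrogen and −0.23 with progesterone. Without both-hormone array 2 it was −0.25 (limma unadjusted p = 0.228). SLIT3 and the slit receptor ROBO1 were below the filter.

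**Figure D3:**
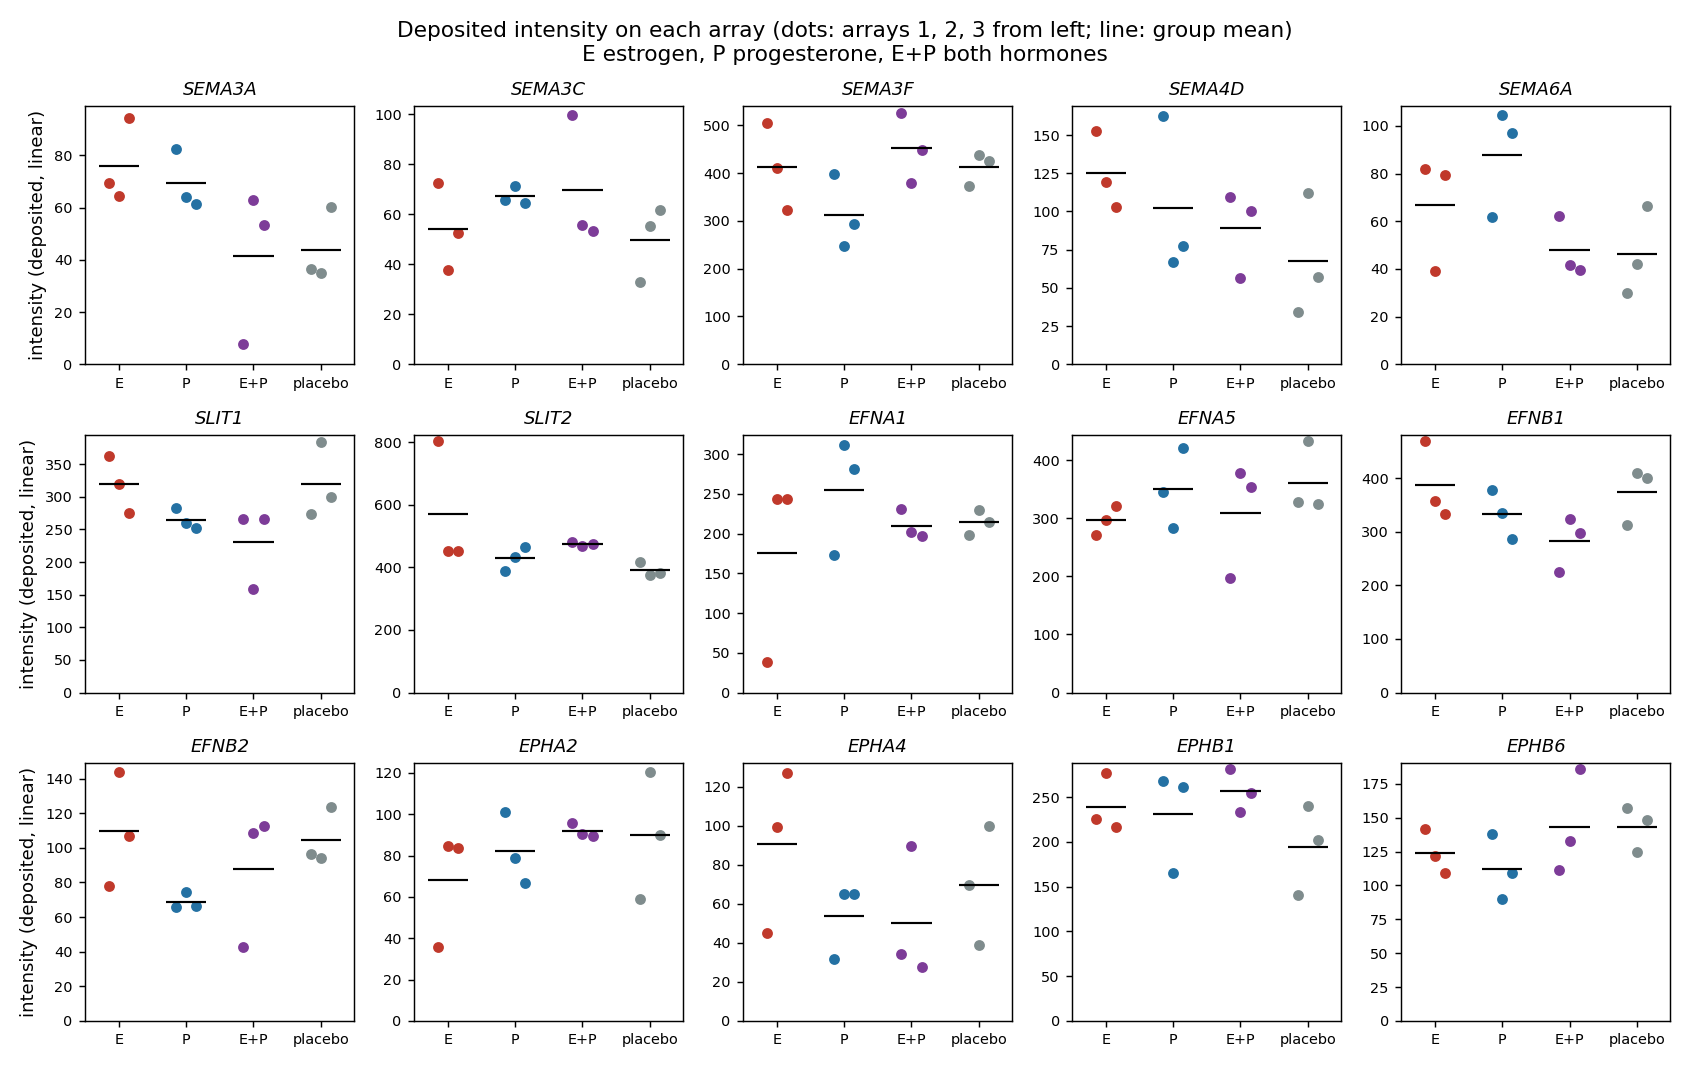
Deposited linear intensity (y axis, from 0) on each array of the 15 members chosen by their p or by the size of their change, with dots for monkeys 1 to 3 of each group and a line at the group mean. SLIT2 on estrogen array 1 (803), EFNA1 on estrogen array 1 (38.4) and SEMA3A on both-hormone array 1 (7.94) stand far from the other arrays of their groups.

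Ephrin-A ligands, which are anchored to the membrane by a lipid, included the most variable members. EFNA1 read 38.4, 243 and 244 on the estrogen arrays, 173, 311 and 281 on the progesterone arrays and 231, 202 and 197 on the both-hormone arrays, against 198, 229.9 and 215 on the placebo arrays. Estrogen array 1 alone was low and the other 11 lay between 173 and 311. Its estrogen change of −0.68 ± 0.55 (SE, limma unadjusted p = 0.241) turned to 0.20 without that array. EFNA2 varied most within groups, with an SD of 0.81 on the log2 scale, and gave 0.35 with estrogen, 0.43 with progesterone and 0.30 with both. Its other tested probe set gave 0.37, −0.70 and −0.16, opposite in sign with progesterone and both. EFNA5 read 272, 296 and 321 on the estrogen arrays, 346, 283 and 421 on the progesterone arrays and 198, 378 and 353 on the both-hormone arrays, against 328, 432 and 324 on the placebo arrays. The estrogen arrays lay below placebo by intensity and overlapped it after normalization, and the changes were −0.27 with estrogen, −0.027 with progesterone and −0.26 with both. Its other tested probe set gave −0.23, −0.14 and 0.15. EFNA3 gave −0.10 with estrogen, 0.26 with progesterone and −0.015 with both, and its other tested probe set −0.18, −0.14 and 0.36.

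Ephrin-B ligands span the membrane and can signal back into their own cell. EFNB2 read 77.6, 144 and 107 on the estrogen arrays, 65.6, 74.2 and 66.5 on the progesterone arrays and 42.7, 108 and 113 on the both-hormone arrays, against 96.1, 93.9 and 123 on the placebo arrays. All progesterone arrays were below placebo, at a change of −0.54 ± 0.34 (SE, limma unadjusted p = 0.141, adjusted p = 0.731), while a second probe set, below the filter, gave 0.12, 0.36 and −0.060 for estrogen, progesterone and the combination. Both-hormone array 1 was the lowest of the 12, and without it the change of −0.39 with both turned to 0.067. On its brightest probe set EFNB1 read 469, 357 and 333 on the estrogen arrays, 378, 335 and 285 on the progesterone arrays and 226, 323 and 298 on the both-hormone arrays, against 312, 409 and 399.7 on the placebo arrays. After normalization all both-hormone arrays were below placebo, with −0.41 ± 0.20 (SE, limma unadjusted p = 0.0661). The margin was very narrow: as log2 differences from the placebo mean, both-hormone array 2 was at −0.21175 and placebo array 1 at −0.21102. By intensity that order was reversed, at 323 and 312. The other tested probe sets of EFNB1 gave 0.36 and −0.36 with both hormones against placebo, so its probe sets did not share a direction. With progesterone its brightest probe set gave −0.14, and its tested probe sets ran from −1.03 to 0.36. EFNB3 gave 0.14 with estrogen, 0.31 with progesterone and 0.26 with both.

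Plexins are the signalling receptors of semaphorins. PLXNB1, the receptor of SEMA4D, gave −0.040 with estrogen, −0.25 with progesterone and 0.16 with both, with a within-group SD of 0.14 on the log2 scale. The 6 tested plexins (PLXNA2, PLXNA3, PLXNB1, PLXNB2, PLXNC1 and PLXND1) had changes between −0.30 (PLXNA3 with progesterone) and 0.22 (PLXNB2 with progesterone) in the 3 comparisons with placebo. The lowest unadjusted limma p was 0.122, for PLXNA3 with progesterone. PLXNB2, another B-class plexin, read 489, 639 and 456 on the estrogen arrays, 537, 547 and 609.8 on the progesterone arrays and 481, 603 and 588 on the both-hormone arrays, against 429, 496 and 535 on the placebo arrays, and after normalization its groups overlapped. PLXNC1, a receptor of SEMA7A, read 306, 627 and 531 on the estrogen arrays, 371, 473 and 635 on the progesterone arrays and 319, 646 and 438 on the both-hormone arrays, against 608, 516 and 519.9 on the placebo arrays, lowest on the arrays with high ribosomal signal and on progesterone array 1.

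Eph receptors are tyrosine kinases. EPHA2 read 35.7, 84.4 and 83.8 on the estrogen arrays, 101, 78.6 and 66.7 on the progesterone arrays and 95.9, 90.3 and 89.6 on the both-hormone arrays, against 59.1, 121 and 89.9 on the placebo arrays. Estrogen array 1 was the lowest of the 12, and the change with estrogen was −0.45 ± 0.33 (SE, limma unadjusted p = 0.201), against −0.012 without that array. EPHA4 read 45.1, 99.3 and 127 on the estrogen arrays, 31.5, 64.9 and 65.0 on the progesterone arrays and 34.0, 89.4 and 27.6 on the both-hormone arrays, against 69.6, 38.8 and 99.8 on the placebo arrays, with overlapping groups and changes of 0.26 with estrogen, −0.32 with progesterone and −0.55 with both. EPHB1 read 225, 277 and 217 on the estrogen arrays, 268, 166 and 261 on the progesterone arrays and 281, 234 and 255 on the both-hormone arrays, against 141, 240.1 and 202 on the placebo arrays and gave 0.31 with estrogen, 0.26 with progesterone and 0.39 with both. Placebo array 1 was the lowest of the 12, and without it the values were 0.13, 0.081 and 0.22. EPHB6, whose kinase domain is inactive, read 142, 122 and 109 on the estrogen arrays, 138, 89.8 and 109 on the progesterone arrays and 111, 133 and 186 on the both-hormone arrays, against 157, 125 and 148 on the placebo arrays and gave −0.21 with estrogen, −0.33 with progesterone and −0.056 with both. EPHB3 gave 0.30 with estrogen, −0.23 with progesterone and 0.18 with both, and EPHB4 gave 0.078 with estrogen, 0.18 with progesterone and −0.11 with both.

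UNC5B was the only netrin receptor bright enough to be tested. It read 460.0, 443 and 387 on the estrogen arrays, 605, 466 and 379 on the progesterone arrays and 577, 549 and 540.0 on the both-hormone arrays, against 398, 465 and 486 on the placebo arrays. All both-hormone arrays lay above placebo, at 0.31 ± 0.18 (SE, limma unadjusted p = 0.112, adjusted p = 0.9994). GAP43, the growth cone protein and protein kinase C substrate, read 3653, 3826 and 4229 on the estrogen arrays, 3825, 3934 and 4749.9 on the progesterone arrays and 3366, 3691 and 3828 on the both-hormone arrays, against 3944, 3855 and 3303 on the placebo arrays. Its within-group SD of 0.11 on the log2 scale was the smallest of the 32 members, and all of its groups overlapped. Its changes were 0.14 ± 0.15, 0.10 ± 0.15 and 0.035 ± 0.15 with estrogen, progesterone and both (SE), and the 95% intervals were −0.19 to 0.47, −0.23 to 0.43 and −0.30 to 0.37.

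The 15 members below the filter were DCC, EFNA4, EPHA1, EPHA3, EPHA5, EPHA7, NRP1, NRP2, NTN3, ROBO1, SEMA3D, SEMA3E, SEMA6C, SLIT3 and UNC5C. Their readings lay between 0.734 and 108. DCC, the attractive netrin receptor, was under the offset on all 12 arrays and EPHA7 on 9. The member nearest above the filter was SEMA3A (mean intensity 57.6) and the nearest below was NRP2 (48.1). NRP2, the neuropilin that pairs with SEMA3F, read 21.0, 9.46 and 27.6 on the estrogen arrays, 75.8, 57.7 and 38.8 on the progesterone arrays and 52.5, 75.2 and 60.6 on the both-hormone arrays, against 50.3, 54.1 and 54.4 on the placebo arrays, so each estrogen array was below all the others. In a fit with no filter NRP2 had −1.25 ± 0.28 (SE) with estrogen against placebo (limma unadjusted p = 0.000978, adjusted p = 0.722) and 1.39 with both hormones against estrogen (unadjusted p = 0.000434, adjusted p = 0.606). Its second probe set had changes of 0.039, −0.29 and −0.51 for estrogen, progesterone and the combination. NRP1 in that fit had −0.92 with estrogen (limma unadjusted p = 0.0301). These were chosen after their values were seen.

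Setting the combined treatment against each hormone, 0 members passed against estrogen (0% of all tested probe sets) and 0 against progesterone (0.0133%), by limma. Against estrogen, 2 members had an unadjusted p under 0.05 (6.25%, against 2.87% of all): EFNB1 at −0.46 and SLIT1 at −0.51. Deviations from group means correlated above 0.1 for same-numbered estrogen and both-hormone arrays, and also for some differently numbered ones. In a fit of the 6 estrogen and both-hormone arrays paired by number, 0 members reached an unadjusted p under 0.05 (4.64% of all did) and 0 passed. The lowest unadjusted limma p was 0.0524, for UNC5B at 0.37. EFNB1 was −0.31 without estrogen array 1 and −0.31 without both-hormone array 1 (limma unadjusted p = 0.158 and 0.172). SLIT1 was −0.43 without estrogen array 1 and −0.27 without both-hormone array 2 (limma unadjusted p = 0.104 and 0.198). Against progesterone, 4 had an unadjusted p under 0.05 (12.5%, against 7.71% of all): PLXNA3 at 0.41, PLXNB1 at 0.41, SEMA3F at 0.52 and SEMA6A at −0.79, with limma adjusted p between 0.534 and 0.607. Leaving out 1 array, this count ran from 0 to 4, and the share of all probe sets in those fits was not computed. The dimmer SEMA6A probe set, below the filter, had 0.73 with progesterone and 0.60 with both against placebo. For PLXNB1 and PLXNA3 all both-hormone arrays were above all progesterone arrays. PLXNB1 read 374, 458 and 427 with both hormones, against 309, 336 and 285 with progesterone, and PLXNA3 read 119, 135 and 115 with both hormones, against 104, 82.8 and 75.1 with progesterone. Both-hormone arrays did not overlap those of estrogen for 5 members (15.6%, against 6.74% of all) or those of progesterone for 6 (18.8%, against 15.7%). Genes named for these differences and for the interaction were chosen after their values were seen.

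The interaction asks whether the combined treatment departs from the sum of the single hormones on the log2 scale. By limma 0 members passed (0% of all), and 2 had an unadjusted p under 0.05 (6.25%, against 4.99% of all). These were SEMA3A at −1.63 ± 0.68 (SE, adjusted p = 0.958) and SEMA6A at −1.25 ± 0.42 (adjusted p = 0.923). On these probe sets the mean change of both genes was above 0 with each hormone alone. With both hormones it was 0.050 for SEMA6A and −0.37 for SEMA3A. SEMA6A arrays of each single hormone overlapped placebo, and its dimmer probe set, below the filter, had 0.60 with both. Without both-hormone array 1 SEMA3A had 0.37 with both against placebo, and its interaction value was −0.90 (limma unadjusted p = 0.0249). These comparisons share arrays with each other and with those against placebo.

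**Figure D4:**
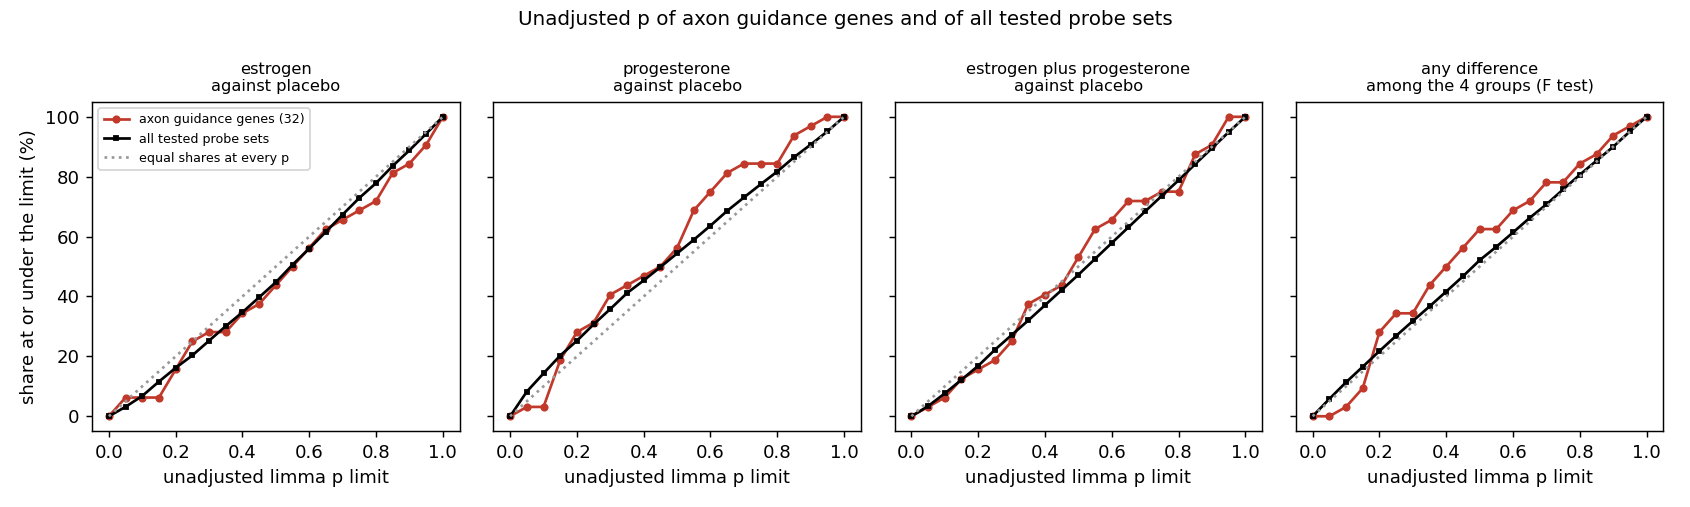
Share of the 32 axon guidance genes (red) and of all 7535 tested probe sets (black) at or under each unadjusted p from limma (x axis, in steps), for the 3 comparisons with placebo and the F test. At the limit of 0.2 the shares were 15.6% and 16.2% with estrogen, 28.1% and 25.2% with progesterone, and 15.6% and 16.8% with the combined treatment.

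Spread within groups was also like that of the array as a whole: the median SD on the log2 scale was 0.29 over the 32 members and 0.30 over all tested probe sets, and 16 of 32 lay below the latter. Of the 13 genes with more than 1 probe set, all probe sets had the same sign for 8 with estrogen, 6 with progesterone and 4 with the combined treatment. Of the 5 genes with at least 2 tested probe sets, the counts were 3, 1 and 0. All 47 symbols were found in the macaque annotation, where EFNA1, EFNA3 and EFNA4 lie side by side with 0 protein-coding genes between neighbours, as do SEMA3D, SEMA3A and SEMA3E, with SEMA3C 4 genes further on.

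Of 56 listed growth cone effectors, the proteins that relay guidance signals to the cytoskeleton, 44 were on the array and 40 were tested. By limma 0 of 40 passed for any treatment. Those at an unadjusted p under 0.05 numbered 1 with estrogen (2.5%, against 3.16% of all), 2 with progesterone (5%, against 8.24%) and 2 with both (5%, against 3.38%), and the medians were 0.061, −0.014 and 0.045. LIMK1, a kinase that inactivates cofilin, had 0.69 (limma unadjusted p = 0.0147) with estrogen, and its estrogen arrays overlapped those of placebo. LIMK2, its relative, read 152, 97.9 and 122 with progesterone and 121, 141 and 101 with both hormones, against 184, 189 and 161 with placebo. All arrays of both groups were below placebo, with −0.50 (limma unadjusted p = 0.0189) for progesterone and −0.57 (limma unadjusted p = 0.0101) for both, while a LIMK2 probe set below the filter gave −1.08 and −0.93. DPYSL2, the collapsin response mediator downstream of SEMA3A, had −0.37 (limma unadjusted p = 0.0256) with progesterone, its arrays all below placebo. After normalization, arrays did not overlap placebo for 9 of the 40 with progesterone (22.5%, against 16.7% of all) and for 4 with both (10%, against 8.92%).

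Of 26 other cues and growth inhibitors, 17 were on the array and 14 were tested, with 0 past the limma threshold for any treatment. Those at an unadjusted p under 0.05 numbered 1 with estrogen (7.14%, against 3.16% of all), 2 with progesterone (14.3%, against 8.24%) and 0 with both (0%, against 3.38%), and the medians were −0.094, −0.040 and −0.072. CXCL12, a chemokine that guides migrating neurons, had −1.11 (limma unadjusted p = 0.0349) with estrogen, and its other probe set, below the filter, gave 0.032. TNR, a matrix protein of perineuronal nets, averaged 23.0 ± 3.76 with progesterone, against 109.7 ± 56.3 with placebo (SD, n = 3 each), at −1.82 (limma unadjusted p = 0.00422), while its other probe set, below the filter, gave 0.37. PTPRS, a receptor for inhibitory proteoglycans, had −1.03 (limma unadjusted p = 0.00669) with progesterone and its other probe sets −1.15 and −1.41.

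No cell type or cerebellar marker passed the adjusted threshold in any comparison. The lowest limma adjusted p was 0.177, for an astrocyte marker with progesterone. Some markers had an unadjusted p under 0.05 against placebo, and the part of cell types in the values above was not tested. With progesterone, 4 of 12 tested astrocyte markers (SOX9, FGFR3, GFAP and GLUL) had an unadjusted limma p under 0.05 (33.3%, against 8.24% of all) and read lower. Over the list 6 of 12 lay above 0 and the median was 0.0093, and summed astrocyte intensity was 13663 to 16488 with progesterone, against 14271 to 14981 with placebo. Of 7 tested microglia markers 6 lay above 0 with progesterone, with a median of 0.30. At an unadjusted limma p under 0.05 were CD14 (higher) and CX3CR1 (lower), 28.6% against 8.24% of all. Summed over 9 genes, microglia marker intensity was 1321 to 1832 with progesterone, against 1273 to 1515 with placebo. The 8 tested serotonin markers had a median of −0.45 with progesterone, and 7 lay below 0. Of these 8, 2 had an unadjusted limma p under 0.05 (25%, against 8.24% of all), both lower. The 10 tested neuron markers had medians of 0.088, −0.0056 and 0.028 with estrogen, progesterone and both. Of 7 tested cerebellar markers 6 were above 0 with estrogen, 3 with progesterone and 6 with both, with medians of 0.27, −0.054 and 0.11. Their summed intensity over 8 genes was 2280 to 3342 with estrogen and 2222 to 2890 with both, against 2269 to 2461 with placebo.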

How the data were processed

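Biotin-labelled RNA of 12 dorsal raphe samples was read on human U95A arrays, per the labels. The deposited table holds an intensity for 12625 probe sets. Its trimmed mean (2% from each end) was 200.1 on each array, found from the values. How probes were summarised is not given in the sources used here. The progesterone group was taken from the source names, since its titles carry the codes of the combined group. Deposited intensities were converted to log2 with the pooled 10th percentile as offset (8.26). The 67 control probe sets were left out. Array medians spanned 0.20 on the log2 scale, above a limit of 0.15, so arrays were quantile normalized. The lowest 40% by mean were left out. Group means over 12 arrays were fitted with limma 3.58.1 (R 4.3.3), and the fit was tested on simulated data. Alternatives changed the offset, normalization, filter, variance model, arrays, weights and pairing.

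Members and lists were chosen with earlier results of these data known. Values on every array are given for members with an unadjusted p under 0.05 against placebo, and for the 3 highest and 3 lowest changes per hormone group (15 of 32). They are also given for the 5 members of highest mean (GAP43, SEMA5A, PLXNB2, PLXNC1 and UNC5B) and for NRP2. Others are named by family. From the other lists, up to 4 genes per comparison at an unadjusted p under 0.05 are named. Same-numbered arrays were checked by the correlation of their deviations from group means. It was 0.41, 0.30 and 0.13 for estrogen with both hormones, all over 0.1, and not over 0.1 for every number in other pairs of groups. The value of 0.41 was between the arrays of high ribosomal signal. Differently numbered arrays of these 2 groups ran from −0.35 to 0.21. Among them, estrogen array 3 with both-hormone array 2 (0.21) and estrogen array 2 with both-hormone array 3 (0.12) were also over 0.1. The labels do not say that a number marks a shared batch. With 3 arrays per group, their number limits the precision. The macaque annotation (T2T-MMU8v2.0) served for names and gene order only. The result of 1 gene of the other lists is not reported here.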

Additional observations from a re-analysis of the deposited data

Results flagged for a closer look

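Some readings lay above all placebo arrays on probe sets too dim to be tested. One EPHA5 probe set averaged 35.0 with estrogen and 26.3 with progesterone: it read 77.7, 14.1 and 13.4 on the estrogen arrays, 42.1, 27.4 and 9.33 on the progesterone arrays and 8.47, 5.22 and 7.84 on the both-hormone arrays, against 8.66, 5.20 and 6.81 on the placebo arrays. The brightest EPHA5 probe set, also below the filter, gave 0.19 and 0.65 with estrogen and progesterone, and the remaining one −0.064 and −0.21. EFNA4 averaged 34.9 with both hormones, reading 29.8, 25.2 and 49.7, against 21.9, 24.3 and 21.8 with placebo.

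SEMA3A was marked by the ranges of its arrays. Progesterone arrays lay above all placebo arrays, while both-hormone arrays lay below all estrogen arrays. The margins were narrow on the log2 scale, as differences from the placebo mean. Progesterone array 3 was at 0.442 against 0.397 for placebo array 3, and both-hormone array 2 at 0.440 against 0.448 for estrogen array 1. Its interaction value was −1.63 ± 0.68 (SE, limma unadjusted p = 0.0348, adjusted p = 0.958), and both-hormone array 1 read 7.94, under the offset. Without that array its change with both hormones against placebo turned from −0.37 to 0.37. In the fit paired by number, both hormones against estrogen gave −1.05 (limma unadjusted p = 0.0600).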

How the results depend on the processing

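No member passed the adjusted threshold under any alternative run for the 7 comparisons, in 167 of 167 counts. The lowest adjusted p over these was 0.196, for both hormones against progesterone with array weights. The replicate block gave 0 members past the threshold in each comparison and changed no call. At an unadjusted p under 0.05 it gave 1 member with estrogen, 1 with progesterone and 0 with both. The share of all tested probe sets in that fit was not computed. Counts at an unadjusted p under 0.05 ran from 0 to 4, 0 to 4 and 0 to 2 for estrogen, progesterone and both hormones. Without the arrays of high ribosomal signal they were 1, 3 and 1. The number of members tested was not the same throughout, from 24 with the lowest 60% left out to 47 with no filter. Shares of all probe sets at that p were not computed for these alternatives, so the counts cannot be set against them. Leaving out 1 array, in a check added after seeing the data, the members above 0 numbered 13 to 21, 17 to 20 and 15 to 23, with medians of −0.054 to 0.11, 0.012 to 0.11 and −0.023 to 0.090, and over all alternatives the progesterone median reached −0.016. Single-gene values kept their direction in 1139 of 1188 checks, and the 49 changes of direction were in 15 values, none of which had passed. That share overstates stability, since many checks could not turn a value. The variance model, the replicate block and a fit of only the groups compared leave each value as it was. Leaving out an array of a group outside the comparison hardly moves it. The genes were also chosen by the size or the p of their change. With the values as deposited the value turned to −0.017 for SEMA3F with estrogen. With arrays shifted to a common median the value turned to −0.035 for SEMA3F with estrogen and −0.013 for SLIT1 with estrogen. With array weights the value turned to −0.12 for SEMA3F with estrogen, −0.17 for SEMA3C with estrogen, −0.12 for EFNB1 with estrogen, −0.051 for SLIT1 with estrogen, 0.013 for EFNA5 with progesterone, −0.064 for EPHA2 with both hormones, −0.20 for SEMA6A with both hormones and 0.14 for EPHB6 with both hormones. Without both arrays of high ribosomal signal the value turned to 0.18 for EFNA1 with estrogen, −0.17 for SEMA3F with estrogen, −0.10 for SEMA3C with estrogen, −0.10 for EFNB1 with estrogen, −0.087 for SLIT1 with estrogen, 0.38 for SEMA3A with both hormones, 0.029 for EFNA5 with both hormones, −0.10 for SEMA6A with both hormones, 0.13 for EPHB6 with both hormones and 0.085 for EFNB2 with both hormones. Leaving out 1 array at a time, values ranged over −1.13 to 0.20 for EFNA1 with estrogen, −0.16 to 0.16 for SEMA3F with estrogen, −0.21 to 0.27 for EFNB2 with estrogen, −0.11 to 0.28 for SEMA3C with estrogen, −0.10 to 0.15 for EFNB1 with estrogen, −0.070 to 0.14 for SLIT1 with estrogen and −0.065 to 0.73 for EPHA4 with estrogen. The other ranges were −0.16 to 0.11 for EFNA5 with progesterone, −0.30 to 0.12 for EPHA2 with progesterone, −0.78 to 0.37 for SEMA3A with both hormones, −0.42 to 0.035 for EFNA5 with both hormones, −0.18 to 0.23 for EPHA2 with both hormones, −0.17 to 0.29 for SEMA6A with both hormones, −0.27 to 0.12 for EPHB6 with both hormones and −0.63 to 0.067 for EFNB2 with both hormones. The cause was not tested. Low signal limits what can be said of DCC and EPHA7, which read under the offset on 12 and 9 arrays.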
